A study of Mus musculus with 32 samples.

Results

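Elavl4, Dcx, Kif5c, Syt4 and Megf10 are 5 genes best known from nervous tissue that were picked because their ratios on these arrays were lower in the older kidney than around birth. They were matched by the gene symbol in the array's annotation. All 5 were found, with 11 probes among them, out of 18999 genes that had a value. Because the fall chose the genes, their values are described here without a test, and a lower late level of any of them is not a finding. The data are 32 arrays of kidney RNA from normal C57BL/6 mice, an inbred laboratory strain, labelled with Cy5 and hybridised against a Cy3-labelled universal mouse reference RNA. The stages are embryonic day 19 (E19) and postnatal days P01, P03, P05, P07, P10, P14, P21, P28 and P35. P03 and P35 have 4 arrays and the other stages 3 each. All groups are untreated whole kidneys of the same strain, and the number of animals behind a stage is not stated, so the p-values below measure only the spread between these arrays. A protocol text attached to the samples describes ureteral obstruction, but the source names call every kidney normal, and the grouping here rests on those names.

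Every value is a log2 ratio of kidney RNA to the reference RNA, so a ratio of 0 means equal signal. A value deposited as exactly 0 was taken as not measured. On each array between 16194 and 17983 genes were measured, and precision is limited by how many arrays a stage has. The median log2 ratio of 4 tubule genes (Slc34a1, Lrp2, Slc12a1 and Umod, picked after the data were seen) lay between 5.53 and 7.01 and was above 0 on 32 of 32 arrays, so the ratios were read as kidney over reference, the direction the dye labels also allow. The image numbers in the labels fall into 3 separate runs of 8, 8 and 16 arrays, which were treated as a possible batch. Ratios of different probes do not rank genes by abundance, so levels are compared only within a gene.

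ELAV proteins bind AU-rich elements in messenger RNAs and control their stability and splicing, and Elavl4 (HuD) is the member best known from differentiating neurons. Dcx (doublecortin) stabilises the microtubules of migrating immature neurons, and Kif5c is a heavy chain of kinesin-1, the motor that carries vesicles and organelles outwards along microtubules, enriched in neurons. Syt4 is a synaptotagmin, a membrane protein of secretory vesicles, and Megf10 is a transmembrane receptor with EGF-like repeats that serves engulfment by glia, spacing of retinal neurons and muscle satellite cells. In the mouse, new nephrons form from a pool of progenitor cells around the collecting duct tips, and this pool is used up within the first days after birth. These arrays measure whole organs, in which fewer cells of a type and less RNA per cell cannot be told apart.

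On the GRCm38.p6 assembly, the RefSeq gene table places Kif5c at chr2:49619286-49774778, Elavl4 at chr4:110203737-110351939 and Dcx at chrX:143855842-143933396. Promoter windows of RefSeq on the same build run from 250 bases before to 50 bases after an annotated start. Of the genes described here, the windows available covered Elavl4, Dcx and Kif5c only. These genes have 7 windows in all. The window at the outermost start of each gene is printed 5′ to 3′ on the gene's strand, with matches to the searched motifs in capitals. The Elavl4 window lies at chr4:110351862-110352161 on the minus strand, the Dcx window at chrX:143933170-143933469 on the minus strand and the Kif5c window at chr2:49619036-49619335 on the plus strand.
Elavl4: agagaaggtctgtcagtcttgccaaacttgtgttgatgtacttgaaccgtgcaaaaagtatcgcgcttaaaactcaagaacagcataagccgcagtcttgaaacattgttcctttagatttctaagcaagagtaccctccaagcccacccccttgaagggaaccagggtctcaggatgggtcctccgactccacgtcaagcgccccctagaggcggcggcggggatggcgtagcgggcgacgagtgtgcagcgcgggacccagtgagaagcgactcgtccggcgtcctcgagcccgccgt
Dcx: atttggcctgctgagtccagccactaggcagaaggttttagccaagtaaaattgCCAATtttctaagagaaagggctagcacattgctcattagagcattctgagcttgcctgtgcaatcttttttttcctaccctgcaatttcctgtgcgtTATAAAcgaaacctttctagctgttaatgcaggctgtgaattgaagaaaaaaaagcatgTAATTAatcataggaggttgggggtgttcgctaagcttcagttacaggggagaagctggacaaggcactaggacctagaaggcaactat
Kif5c: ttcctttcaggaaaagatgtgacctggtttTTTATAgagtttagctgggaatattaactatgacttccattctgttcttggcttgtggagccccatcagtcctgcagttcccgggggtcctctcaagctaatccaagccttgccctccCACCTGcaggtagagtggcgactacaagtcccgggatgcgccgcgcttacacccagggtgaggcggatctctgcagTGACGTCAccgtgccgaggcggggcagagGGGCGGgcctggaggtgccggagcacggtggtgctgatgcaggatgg

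The 3 windows differ in composition. GC content was 57% for Elavl4, 43% for Dcx and 58% for Kif5c, against a median of 52.7% over 32851 windows of 27025 genes, and the CpG count was 23, 3 and 14 in the same order against a median of 7. Both strands were searched for 14 motifs, and a match is only a string of letters. The Dcx window holds TATAAA at position 153, counted from 1 at the 5′ end (13.6% of all windows hold it), TAATTA at position 212 (5.29%) and CCAAT at position 55 (37.4%). The Kif5c window holds TATAAA on the opposite strand at position 31, CANNTG at position 149 (72.3%), TGACGTCA at position 225 (1.79%) and GGGCGG at position 254 (35.7%). The printed Elavl4 window holds none of the 14 strings, while 3 further Elavl4 windows, 2 of which overlap each other, each hold CANNTG matches as well as CCAAT, and the 2 overlapping ones also hold TAATTA and a CAGCTG (16.3%), which is itself a form of CANNTG. No window of the 3 genes holds TTCAGCACC (0.371%), the left part of the element bound by the neuronal gene repressor REST, the right part of that element (0.521%) or the shorter GGACAG (22.2%), which opens the right part. The other strings without a match were CACGTG (7.15%), a form of CANNTG, the octamer ATTTGCAT (1.74%), the site named for NRF1 (4.60%) and the AP-1 site TGACTCA (5.20%).

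Elavl4 had log2 ratios of -2.73, -4.35, -2.07 and -3.21 on the P35 arrays, against 2.48, 2.53 and 2.23 on the E19 arrays. Every P35 array lay below every E19 array, and the kidney signal passed from above to below that of the reference. The difference of the means, P35 minus E19, was -5.50, which is 45.4-fold lower at P35. From E19 on, the stage means were 2.41 (E19), 2.29 (P01), 1.54 (P03), -0.30 (P05), -2.77 (P07), -2.68 (P10), -3.81 (P14), -4.18 (P21), -3.61 (P28) and -3.09 (P35), with SDs of 0.14 to 0.96 between arrays. The 4 arrays of P03 were at 1.28, 1.38, 2.74 and 0.75, so this stage held an array above all of E19 and others well below it. P05 arrays stood at 0.01, -0.85 and -0.06, below every P03 array, and P07 arrays at -2.37, -2.23 and -3.71, below every P05 array. After P07 the arrays of neighbouring stages overlapped, except that P14 lay below P10, and the mean was lowest at P21.

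The size of the Elavl4 difference depends on the probe. The value rests on the probe measured on 32 arrays, and the other probe, measured on 30, gave means of -1.52 at P35 and 1.49 at E19 and a difference of -3.01. With all probes of the gene averaged, the difference was -4.43. On that other probe the decline came earlier, with a mean of 0.07 at P03 and -1.37 at P05, against -1.89 at P07.

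Dcx was at 0.63, 1.20, 1.17 and 0.37 on the P35 arrays, against 7.38, 4.37 and 5.32 on the E19 arrays. The groups did not overlap, and the E19 arrays were spread over a wider range than the P35 arrays. The mean difference was -4.85, or 28.7-fold lower at P35. Means were 5.69, 5.97, 5.76 and 5.44 at E19, P01, P03 and P05, all with overlapping arrays at neighbouring stages. The ratio was then 2.22 at P07 (n = 2), 1.13 at P10 (n = 2), 1.67 at P14, 1.49 at P21 (n = 2), 0.36 at P28 and 0.84 at P35, with SDs over all stages of 0.14 to 1.54. The 2 measured P07 arrays stood at 2.70 and 1.74, against 5.02, 6.65 and 4.65 on the P05 arrays, so the plateau before P05 ended between these stages. The probe used was measured on 29 arrays. The other 2 Dcx probes had a ratio on 3 arrays and on 1 array, and averaging them in gave a difference of -3.25 for P35 minus E19.

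Kif5c had the smallest difference of the 4 genes with a ratio at P35. Its log2 ratios were -0.92, -1.70, -1.65 and -1.27 on the P35 arrays and 1.33, 1.4 and 1.29 on the E19 arrays, without overlap. The mean difference was -2.72, or 6.60-fold lower at P35. The E19, P01, P03 and P05 means were 1.34, 1.14, 1.37 and 0.76, and the P07, P10, P14, P21, P28 and P35 means were -1.0, -1.4, -1.79, -1.17, -1.34 and -1.38, with SDs of 0.04 to 0.36. The P07 arrays (-1.19, -0.64 and -1.17) all lay below the P05 arrays (1.15, 0.45 and 0.68). From P10 on the means stayed within a narrow band with their lowest point at P14, and every P21 array was above every P14 array. The other well-measured probe, on 31 arrays, gave -2.30 for P35 minus E19, and averaging all 3 probes gave -2.27.

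Syt4, placed by the same RefSeq table at chr18:31437808-31447415, was not measured on any of the 4 P35 arrays, so no difference to that stage exists. Its probe had a ratio on 24 arrays, and the other Syt4 probe on 8. Among the measured arrays the ratios were 2.48, 1.46 and 3.54 at E19, 3.39, 1.56 and 3.40 at P01, and 0.69, 2.69 and 2.80 at P07. The ranges of these 3 stages overlapped, although the lowest P07 array lay below every E19 and P01 array, and the P07 minus E19 difference of -0.43 was smaller than the SDs of 1.19 at P07 and 1.04 at E19. The means ran 2.49 (E19), 2.78 (P01), 2.26 (P03), 1.86 (P05), 2.06 (P07), 1.47 (P10), 1.39 (P14, n = 2) and 0.43 (P21, n = 2). At P21 the ratios were 0.31 and 0.56, against 1.13 and 1.65 at P14. A lone P28 array had 3.24, as high as the E19 arrays, and the other P28 arrays gave no ratio. For Syt4, the late loss therefore rests on missing ratios more than on low ones. What an exact 0 stood for is not given in the sources used here.

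Megf10, placed at chr18:57133090-57297467, followed a later course. Its ratios were -4.65, -4.01, -4.05 and -3.69 on the P35 arrays, against -0.02, 0.20 and -0.10 on the E19 arrays. The groups did not overlap and the mean difference was -4.12, or 17.4-fold lower at P35. Means were 0.03 (E19), 0.15 (P01), 0.44 (P03), -0.07 (P05), -0.65 (P07), -0.65 (P10), -2.92 (P14), -3.65 (P21), -3.89 (P28) and -4.10 (P35), with SDs of 0.15 to 0.66. The P14 arrays (-2.43, -3.63 and -2.70) all lay below the P10 arrays (-0.06, -0.94 and -0.94). The gene has 1 probe, measured on all 32 arrays.

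**Figure D1:**
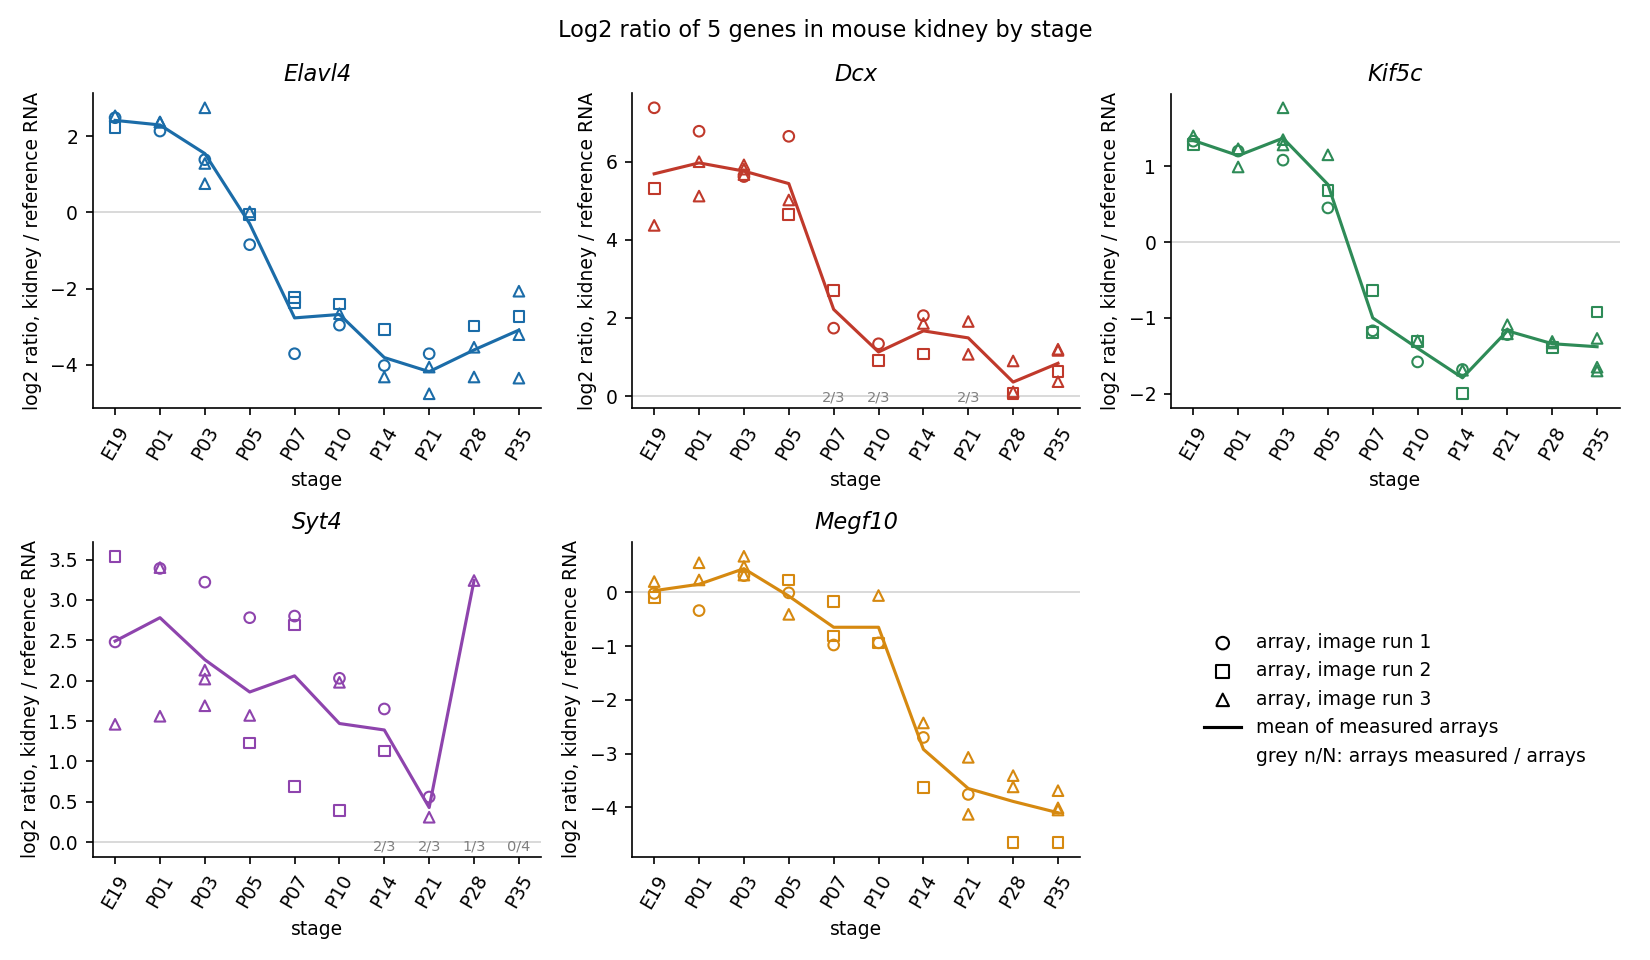
Log2 ratio of kidney to reference RNA (vertical axes, a scale of its own per gene) at the 10 stages (horizontal axes) for Elavl4, Dcx, Kif5c, Syt4 and Megf10. Each symbol is an array, its shape the image run, lines join the means of measured arrays, and grey fractions give measured over all arrays where some lack a ratio. On the probes used, Elavl4, Dcx and Kif5c drop between P05 and P07, Megf10 between P10 and P14, and Syt4 has no P35 value.

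Set beside each other, the 5 genes fall into an early course, a late course and a sparse one. Between P05 and P07 the stage mean was lower by 5.54-fold for Elavl4, 9.30-fold for Dcx and 3.38-fold for Kif5c. Each of these genes had all measured P07 arrays below all P05 arrays, as 4.93% of 16789 genes did. Dcx was measured on 2 of 3 P07 arrays. For Elavl4 this holds on the probe used. On its other probe the P05 arrays ran from -1.89 to -0.75 and the 2 measured P07 arrays from -2.03 to -1.76, which overlap. Megf10 had a P07 minus P05 difference of -0.59 with overlapping arrays, and Syt4 one of 0.20. Between P10 and P14 Megf10 was lower by 4.83-fold. All P14 arrays were below all P10 arrays for Megf10, Elavl4 and Kif5c, as for 6.45% of 16941 genes. Elavl4 had already been lower by 3.57-fold at P05 against P03. There Elavl4 and Megf10 had all P05 arrays below all P03 arrays, as 1.44% of 16908 genes did. All measured P10 arrays were below all measured P07 arrays for Dcx (n = 2 at each stage) and Kif5c, as for 3.28% of 16837 genes. Elavl4, Dcx and Kif5c first lay below the midpoint between their E19 and P35 means at P07, and Megf10 at P14, although the P05 mean of Elavl4 (-0.30) was already close to its midpoint of -0.34. For P35 against E19, all later arrays lay below all earlier arrays for 4 of 4 genes with a ratio at both stages and for 20.1% of 17119 genes. These counts describe genes that were chosen on the same contrast.

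**Figure D2:**
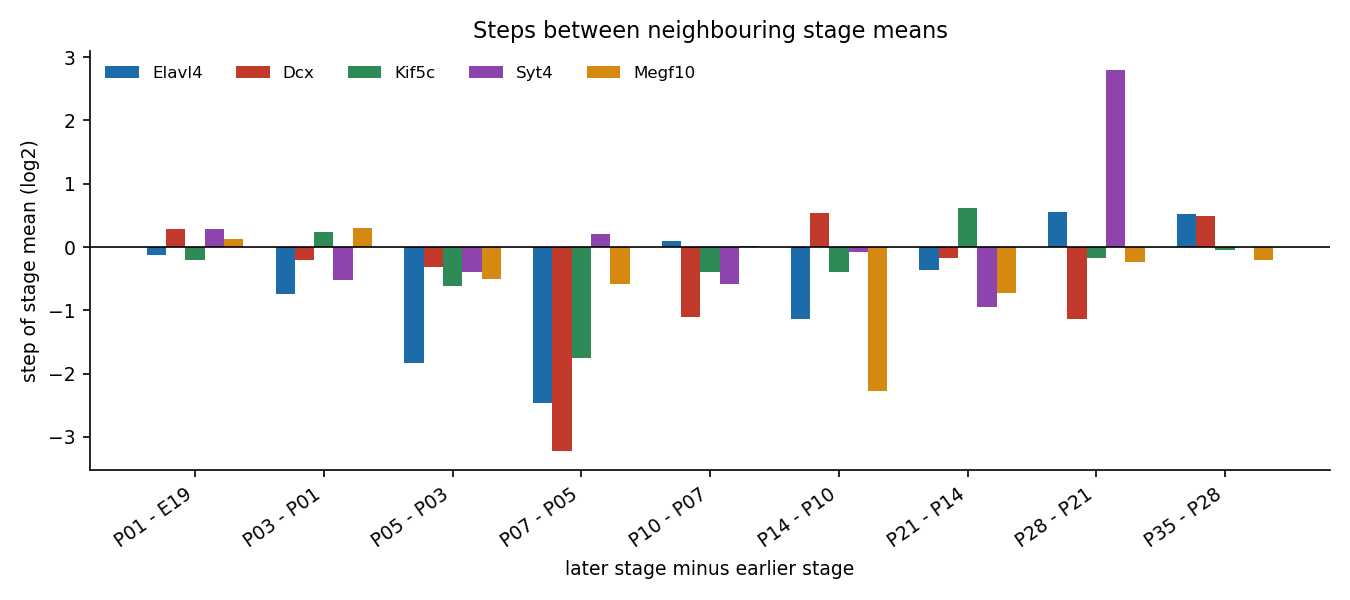
Difference of stage means between neighbouring stages (vertical axis, log2, later minus earlier) for the 5 genes, with 1 bar per gene and step. Bars below 0 mean a lower later stage. The deepest bars of Elavl4 (-2.47), Dcx (-3.22) and Kif5c (-1.76) stand at P07 minus P05 and that of Megf10 (-2.27) at P14 minus P10, while the tall Syt4 bar at P28 minus P21 rests on 1 P28 array.

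Over the first span, P07 minus E19, the differences were -5.18 for Elavl4, -3.46 for Dcx, -2.34 for Kif5c and -0.68 for Megf10. Over the second, P35 minus P07, they were -0.32, -1.38 and -0.39 for Elavl4, Dcx and Kif5c and -3.44 for Megf10. The first span thus holds most of the difference for the first 3 genes, and the second most of that of Megf10. The spans share the P07 arrays with each other and the E19 or P35 arrays with the whole. The small P35 minus P07 value of Elavl4 had no stable sign, being 0.11 with all probes averaged and 0.05 after quantile normalization.

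Arrays of the same image run gave the same directions for P35 minus E19. The value was -4.96 in run 2 and -5.74 in run 3 for Elavl4, and -2.21 and -2.94 for Kif5c in the same order. Dcx gave -4.68 and -3.46, and Megf10 -4.55 and -4.11. Each such value rests on 1 to 3 arrays a stage, and for Dcx the highest E19 array, at 7.38, belongs to run 1, which holds no P35 array.

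Relatives of the 5 genes were tested with limma over all genes of the table. Between P35 and E19, 40.2% of 17119 genes passed at an adjusted p of 0.05, with 19.0% lower and 21.2% higher, and the median change over all genes was 0.06. Between any stages, 43.6% of 16335 genes differed by limma's F test at the same threshold. Of the 3 other ELAV genes, Elavl2 fell by 2.02 ± 0.32 (SE; limma adjusted p = 1.17e-05). It averaged -4.83 ± 0.57 at P35 and -2.81 ± 0.31 at E19 (SD, n = 4 and n = 3). Its 2 probes disagreed, with -3.41 for one and -0.63 for the other, which did not pass. Elavl1, the ELAV gene of all tissues, fell by 0.76 ± 0.15 (limma adjusted p = 0.000213). Elavl3, like Elavl4 a neuronal family member, went the other way and rose by 2.11 ± 0.43 (limma adjusted p = 0.000326), with means of 1.29 at P35 and -0.82 at E19. Its mean stayed between -1.17 and -0.66 up to P14 and was 1.51 at P21, 0.36 at P28 and 1.29 at P35. The P28 arrays were spread widely (SD 1.25), and the lowest of them, at -0.97, lay within the earlier range. In P07 minus E19, Elavl2 alone of the 3 fell (-1.5 ± 0.34; limma adjusted p = 0.00593), as 2.23% of 16880 genes did. Its 2 probes differed there too, at -2.46 and -0.54, and Elavl2 did not pass in P35 minus P07 (-0.52).

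Of the Dcx relatives, all 4 passed in P35 minus E19. Dclk1, a doublecortin-like kinase, fell by 2.04 ± 0.26 (limma adjusted p = 6.77e-07), with means of -4.02 at P35 and -1.98 at E19. The Dclk1 probes ran from -4.32 to -0.87, the last without passing. Dcdc2a fell by 1.81 ± 0.28 and Dclk2 by 1.06 ± 0.24, while Dclk3 rose by 2.57 ± 0.41 (limma adjusted p = 1.49e-05). None of the 4 passed in P07 minus E19, where 7.32% of 16880 genes did, and 1 was lower and 1 higher at an unadjusted p of 0.05. Dclk3 stood just outside the threshold there (1.41; limma adjusted p = 0.0513), and passed with the image run as a block (1.22), after quantile normalization (1.45), with at least 3 arrays a stage (1.41) and without E19 replicate 1 (1.65), E19 replicate 3 (1.77) or P10 replicate 1, P10 replicate 3 or P35 replicate 4 (1.41 each). The Dclk1 mean was -2.28 at P05, -2.58 at P07, -3.13 at P14 and -3.94 at P21, with its lower values from P14 on.

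The other kinesin-1 heavy chains showed no passing change between P35 and E19. Kif5a, the other neuronal heavy chain, differed by -0.12 ± 0.31 (limma adjusted p = 0.803), and Kif5b, the heavy chain of most tissues, by 0.50 ± 0.28 (limma adjusted p = 0.164). Neither passed an unadjusted p of 0.05. Of 8 light chains and cargo adaptors tested, 0 fell and 3 rose, with the same counts at an unadjusted p of 0.05. They were Trak2 (1.32 ± 0.23) and Trak1 (0.96 ± 0.24), which link kinesin-1 to mitochondria, and Klc4, a light chain (0.85 ± 0.17; limma adjusted p = 0.000268). The median over the 8 was -0.16.

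Among 15 other synaptotagmins 2 fell, 2 rose and 11 did not pass, with a median of -0.48. Syt2, a calcium sensor of fast synapses, was lower by 2.76 ± 0.42 on the log2 scale (-2.76; limma adjusted p = 0.000485), measured on 2 arrays at each stage, and Syt13 fell by 1.45 ± 0.33 (limma adjusted p = 0.00074). The 2 Syt13 probes gave -2.07 and -0.84, the second without passing. Syt12 rose by 2.16 ± 0.25 (limma adjusted p = 1.26e-07). Syt16 rose by 0.66 ± 0.20 (limma adjusted p = 0.00925), but its call ended without E19 replicate 2 (0.35) or with only the 2 stages fitted (0.66) and its sign turned with exact zeros kept (-0.01) or all probes averaged (-0.04). Syt1, the main calcium sensor of synaptic vesicles, differed by -1.23 ± 0.52 (limma adjusted p = 0.0598). It passed with the image run as a block (-1.53; limma adjusted p = 0.0103), with only the 2 stages fitted (-1.23), without E19 replicate 3 (-1.54), without P35 replicate 2 (-1.44) or without P01 replicate 1, P05 replicate 2 or P07 replicate 3 (-1.23 each). Syt3 was higher and passed with the image run as a block (1.11; limma adjusted p = 0.000166) or without P35 replicate 4 (0.97), and Syt8 passed without P35 replicate 2 (-1.78).

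Of the 4 Megf10 relatives 2 fell. Megf6 fell by 3.79 ± 0.34 (limma adjusted p = 1.81e-09), averaging -1.24 ± 0.60 at P35 and 2.55 ± 0.28 at E19 (SD, n = 4 and n = 3). Its mean was 2.60 at P10, 2.27 at P14, 0.72 at P21 and -0.13 at P28, later than the Megf10 step. Pear1, a receptor of platelets and endothelium, fell by 0.85 ± 0.19 (limma adjusted p = 0.000793). Megf9 differed by -0.48 ± 0.31 and Megf11, the closest relative, by -0.35 ± 0.15 without passing. Megf9 passed with the image run as a block (-0.74; limma adjusted p = 0.00694). Megf11 passed with all its probes averaged (-2.37; limma adjusted p = 6.66e-07), with exact zeros kept (-2.34) and after quantile normalization (-0.42). The first 2 of these values bring in another Megf11 probe, at 4.33 at E19 but with too few measured P35 arrays for a test. They therefore rest largely on ratios missing at P35. The probe used in the main fit went from 0.29 at E19 to -0.06 at P35.

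**Figure D3:**
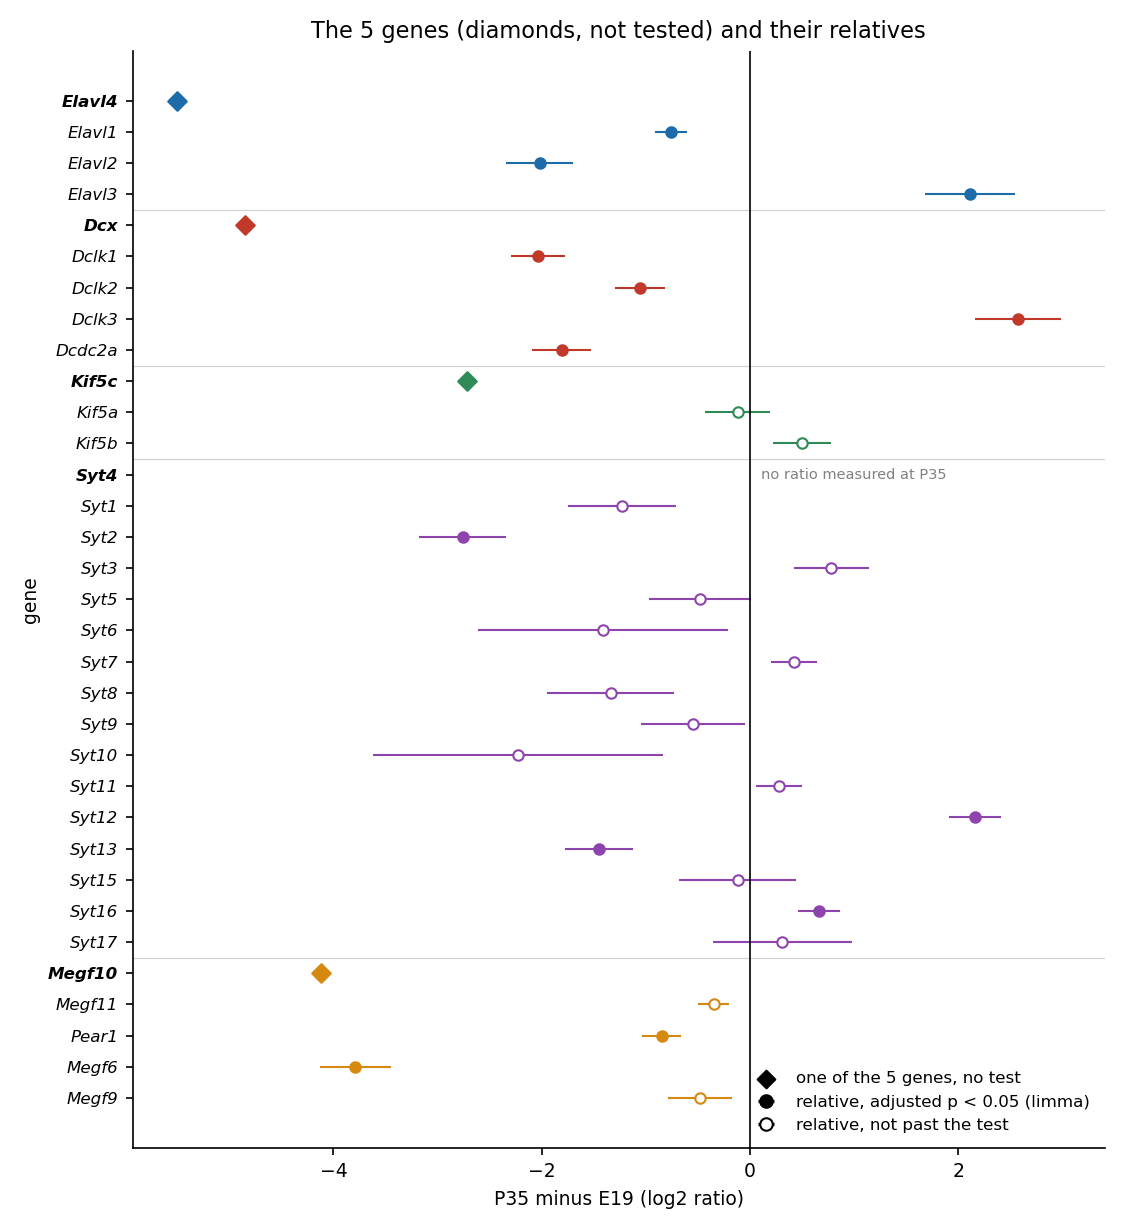
P35 minus E19 difference in log2 ratio (horizontal axis) for the 5 genes (diamonds, no test) and their family members (circles with bars of 1 standard error, filled where the limma adjusted p is below 0.05). Elavl3, Dclk3, Syt12 and Syt16 lie on the positive side as filled circles, opposite to the diamonds, and both Kif5 relatives are open circles close to 0. Syt4 has no diamond because it had no P35 ratio.

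General neuron markers were read to see whether the 5 genes moved with them. Of 18 tested, 4 fell and 1 rose between P35 and E19, against 19.0% lower and 21.2% higher of all 17119 genes. Their median change was -0.22. Gap43 and Ina had too few measured arrays for a test. Gap43 averaged 2.82 on 2 E19 arrays and had a ratio on 0 P35 arrays, and Ina was measured on 1 array at each stage. Tubb3, the neuronal tubulin, differed by -0.24 ± 0.31, Snap25, a synaptic SNARE protein, by 0.16 ± 0.60, and Rbfox3 (NeuN), the nuclear marker, by -0.29 ± 0.30, none of them past the test. Stmn2 (-0.28), Nefl (0.41) and Prph (-0.22) did not pass either. Those that fell were Celf4, an RNA-binding protein (-2.20 ± 0.30), Uchl1, a ubiquitin hydrolase (-1.80 ± 0.25), the neurofilament gene Nefm (-2.78 ± 0.80) and, named after its value was seen, Eno2 (-0.80 ± 0.21). The call of Nefm was lost with the image run as a block (-1.56), with zeros kept (-1.57) or with all probes (-1.60). Mapt (tau), which binds axonal microtubules, rose by 2.25 ± 0.19 (limma adjusted p = 5.37e-10). The median over the 15 neuron markers measured on all arrays ran from -0.32 to -0.18 on the P35 arrays and from -0.31 to -0.11 on the E19 arrays.

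Genes of immature neurons and neurite growth, many of which act in other growing tissues too, were mostly lower at P35. Of 17 tested, 12 fell and 0 rose, against 19.0% and 21.2% of all genes, with a median of -1.97. At an unadjusted p of 0.05, 1 was higher. Dcc was not tested, as it averaged 2.53 on 3 E19 arrays but had a ratio on 0 P35 arrays. Sox11, a transcription factor of progenitors and young neurons, fell by 6.06 ± 0.21 (limma adjusted p = 5.98e-17), and Crmp1, a collapsin response mediator, fell by 3.66 ± 0.49. Marcksl1, an actin regulator, fell by 3.03 ± 0.24 and Nrep, found in regenerating neurons, fell by 2.49 ± 0.43. Most of these differences lay after P07. In P07 minus E19 Sox11 (-1.75 ± 0.22) and, named after its value was seen, Map1b (-1.01 ± 0.26) were the 2 that fell of the 17, against 2.23% of all genes, and 4 were lower at an unadjusted p of 0.05. Marcksl1 (-0.78; limma adjusted p = 0.0634) passed there with the image run as a block (-0.70), after quantile normalization (-0.95), with array medians subtracted (-0.82) and without P05 replicate 3 or P10 replicate 2 (-0.78 each). In P35 minus P07, 11 fell, against 15.2% of 16857 genes, of which 27.2% passed in either direction. The largest step down led into P21 for 7 of the 12 and into P07 for 0 of them. Of the 3197 genes that fell and were measured at every stage, 32.6% had their largest step into P21, more than into any other stage.

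Markers of autonomic nerves and their neighbours were read because a kidney sample holds nerve fibres and may hold adrenal tissue. Of 8 sympathetic neuron genes tested with limma, 0 passed between P35 and E19, and 0 did at an unadjusted p of 0.05. Among all genes 19.0% fell and 21.2% rose in this comparison. Dbh, the noradrenaline-making enzyme, differed by 0.27 ± 0.22 and Th, the first enzyme of that pathway, by -0.09 ± 0.53. Of 7 Schwann cell and glial genes Fabp7 alone passed and rose by 2.58 ± 0.29. Sox10, the defining factor, had a mean of 0.00 at P35 and 0.18 at E19 and did not pass. Of 6 adrenal genes, Pnmt, which makes adrenaline, fell by 1.53 ± 0.44, and the steroid genes Hsd3b1 (1.73 ± 0.51) and Star (0.72 ± 0.25) rose. Star did not pass without E19 replicate 3 (0.63), P35 replicate 1 (0.67) or P35 replicate 3 (0.65). Over the adrenal genes measured on all arrays the median ran from -0.07 to 0.79 on P35 arrays and from 0.22 to 0.60 on E19 arrays. For the 7 Schwann and glial genes it ran from 0.14 to 0.65 at P35 and from 0.18 to 0.94 at E19.

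Syt4 is known from dense-core vesicles, the carriers of neuropeptides and hormones. Of 9 such genes tested 4 fell and 1 rose between P35 and E19, against 19.0% and 21.2% of all genes, with a median of -0.21. The granins Chgb (-1.51 ± 0.27) and Chga (-1.17 ± 0.42) fell, as did the monoamine transporter Slc18a2 (-0.82 ± 0.24) and, named after its value was seen, the peptide-trimming enzyme Cpe (-0.68 ± 0.19). The chromaffin-cell transporter Slc18a1 rose by 2.18 ± 0.41. Chga did not pass without E19 replicate 1 (-1.10), E19 replicate 3 (-1.09) or P35 replicate 3 (-0.88). In P07 minus E19 no gene of the 9 fell by limma and 1 rose, with the same counts at an unadjusted p of 0.05, against 5.09% of all genes that rose.

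REST is the repressor that keeps many neuronal genes silent outside the nervous system, working with CoREST proteins, histone deacetylases and the demethylase Kdm1a. Of 9 genes of this complex 4 fell and 0 rose between P35 and E19, against 19.0% and 21.2% of all genes. Their median was -0.60, and 0 were higher at an unadjusted p of 0.05. Rest itself fell by 0.99 ± 0.21 (limma adjusted p = 0.000359), averaging -0.34 ± 0.23 at P35 and 0.66 ± 0.12 at E19 (SD, n = 4 and n = 3). Rcor2, a CoREST protein, fell by 2.83 ± 0.26, Hdac1 fell by 0.95 ± 0.24 and Kdm1a fell by 0.98 ± 0.36. Kdm1a did not pass after quantile normalization (-0.90) or without E19 replicate 2 (-0.75) or P35 replicate 1 (-0.76). In P07 minus E19 Rest differed by -0.19 ± 0.22 without passing, and Rcor2 fell by 1.16 ± 0.28 (limma adjusted p = 0.01), a call lost without E19 replicate 3 (-1.01) or with only the 2 stages fitted (-1.16). Of 13 textbook REST targets tested, Chga fell, with the limits given above, and Bdnf, a neurotrophin, rose by 1.63 ± 0.24. The median of the 13 was 0.03. Stmn2, Snap25, Syp, Syn1 and Tubb3 among them are also in the neuron list, and Scg2, Scg3 and Chga in the dense-core list. The lists are therefore not separate readings.

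Nephron progenitor genes had much of their change in the first week. Of 10 nephron progenitor genes 6 fell and 0 rose between P35 and E19, against 19.0% and 21.2% of all genes. Their median was -1.56, and 0 were higher at an unadjusted p of 0.05. Six2, which keeps progenitors undifferentiated, fell by 4.16 ± 0.38 (limma adjusted p = 2.48e-09), Eya1, its cofactor, fell by 3.88 ± 0.35, and Cited1 fell by 3.56 ± 0.34. Gdnf, the signal to the ureteric bud, fell by 2.34 ± 0.35. In P07 minus E19 these 4 had already fallen, by 3.68 ± 0.41 for Six2 (limma adjusted p = 1.9e-06), 3.42 ± 0.37 for Eya1, 2.11 ± 0.36 for Cited1 and 1.84 ± 0.37 for Gdnf, whose call was lost with only the 2 stages fitted (limma adjusted p = 0.073). In P35 minus P07, 1 of the 10, Cited1, fell. With the image run as a block Eya1 fell there too (-1.01; limma adjusted p = 0.00011), against -0.45 without it (limma adjusted p = 0.368). The median over the list ran from -0.83 to -0.12 on P35 arrays and from 2.05 to 2.35 on E19 arrays, with a range of -0.32 to -0.05 on P07 arrays and of 0.42 to 1.44 on P05 arrays. Whether this moves with Elavl4, Dcx and Kif5c for a shared reason was not tested.

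Of 10 early nephron genes, expressed as progenitors turn into epithelium, 7 fell and 0 rose in P35 minus E19, against 19.0% and 21.2% of all genes. Wnt4, which triggers that turn, fell by 4.05 ± 0.46, Fgf8 fell by 3.46 ± 0.33, Bmp2 fell by 2.09 ± 0.57 and the Notch ligand Jag1 fell by 1.66 ± 0.26. The largest step down led into P07 for 5 of these 7 and for 2 of the 6 nephron progenitor genes that fell, against 12.9% of the 3197 genes that fell and were measured at every stage.

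**Figure D4:**
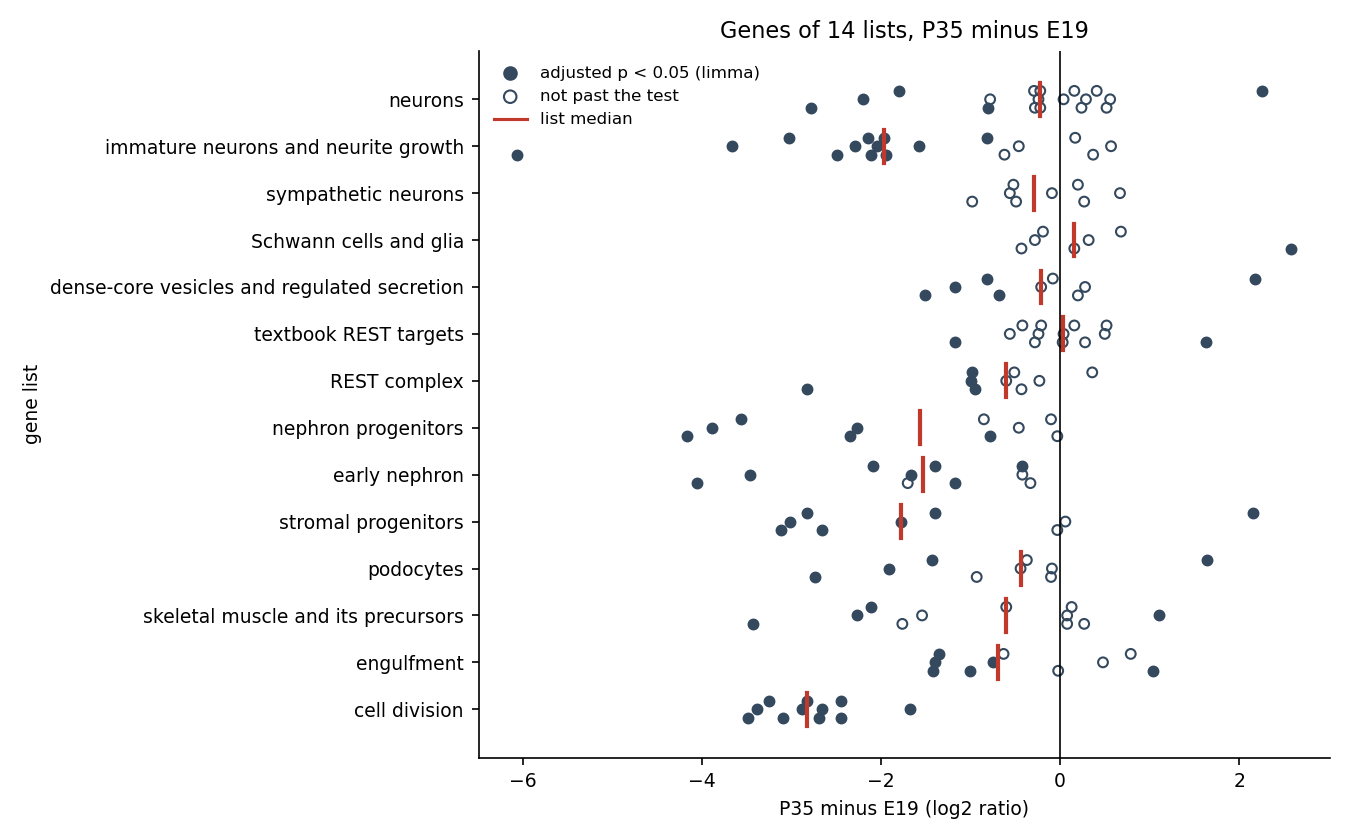
P35 minus E19 difference in log2 ratio (horizontal axis) for the genes of 14 lists (rows), filled where the limma adjusted p is below 0.05, with the list median as a red bar. Neuron, sympathetic neuron and REST target medians (-0.22, -0.29 and 0.03) stand near 0, and those of immature neuron (-1.97), nephron progenitor (-1.56) and cell division genes (-2.82) well below it. Some REST targets are also in the neuron or dense-core list.

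Likeness of course was measured as the root mean square difference between centred stage means, in log2 units, over 10 stages for 16331 genes. Between the members it was 0.86 for Elavl4 with Dcx, 1.06 for Dcx with Kif5c and 1.35 for Elavl4 with Kif5c. Megf10 differed from these 3 by 1.49, 1.24 and 1.11 in the order Elavl4, Dcx and Kif5c. Kif5c thus stood nearer to Megf10 than to Elavl4. Over 8 stages Syt4 differed by 2.01, 1.58, 0.88 and 0.88 from Elavl4, Dcx, Kif5c and Megf10. The measure grows with the size of a change, so genes of like size come out near each other, and it is given with no test.

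Nearest to Elavl4 were Sprr2f (0.70), a cornified-envelope protein gene, Bmper (0.765), a secreted BMP regulator, and Six2 (0.917), with Eya1 next (0.922). Six2 stood at 2.92, 0.78, -0.76 and -1.24 at E19, P05, P07 and P35, and Elavl4 at 2.41, -0.30, -2.77 and -3.09. Nearest to Dcx were Cdhr1 (0.438), a photoreceptor cadherin, Slc32a1 (0.53), the vesicular transporter of GABA and glycine, and Bmper (0.556), while Six2 ranked 15th. Kif5c had Frmd5 (0.225), Ntsr1 (0.293), a neurotensin receptor, and Hmga2 (0.301), a chromatin protein of embryonic tissue, nearest to it, with Six2 at rank 59. For Elavl4, Dcx and Kif5c the neuronal tubulin Tubb3 ranked 7418, 6624 and 6737 in that order. Among the other genes looked up, the progenitor gene Cited1 ranked 191, 163 and 348, the division kinase Aurka 629, 481 and 777, and Rest 2006, 1859 and 1489 in the same order.

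Nearest to Megf10 were Tdrd1 (0.253), a germ-cell gene, Bean1 (0.291) and Tenm3 (0.365), a teneurin adhesion protein of developing circuits. Tdrd1 had means of 1.16 at P14 and 3.18 at P10, and Tenm3 of 0.69 at P14 and 1.84 at P10. For Syt4, whose course could be compared over 8 stages, Foxd1 (0.16), the stromal progenitor factor, Gli1 (0.173), a hedgehog target, and Krt20 (0.183) were nearest. Six2 ranked 711 for Megf10 and 14941 for Syt4. These neighbours were found by their course, so their own differences between stages carry no further weight.

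**Figure D5:**
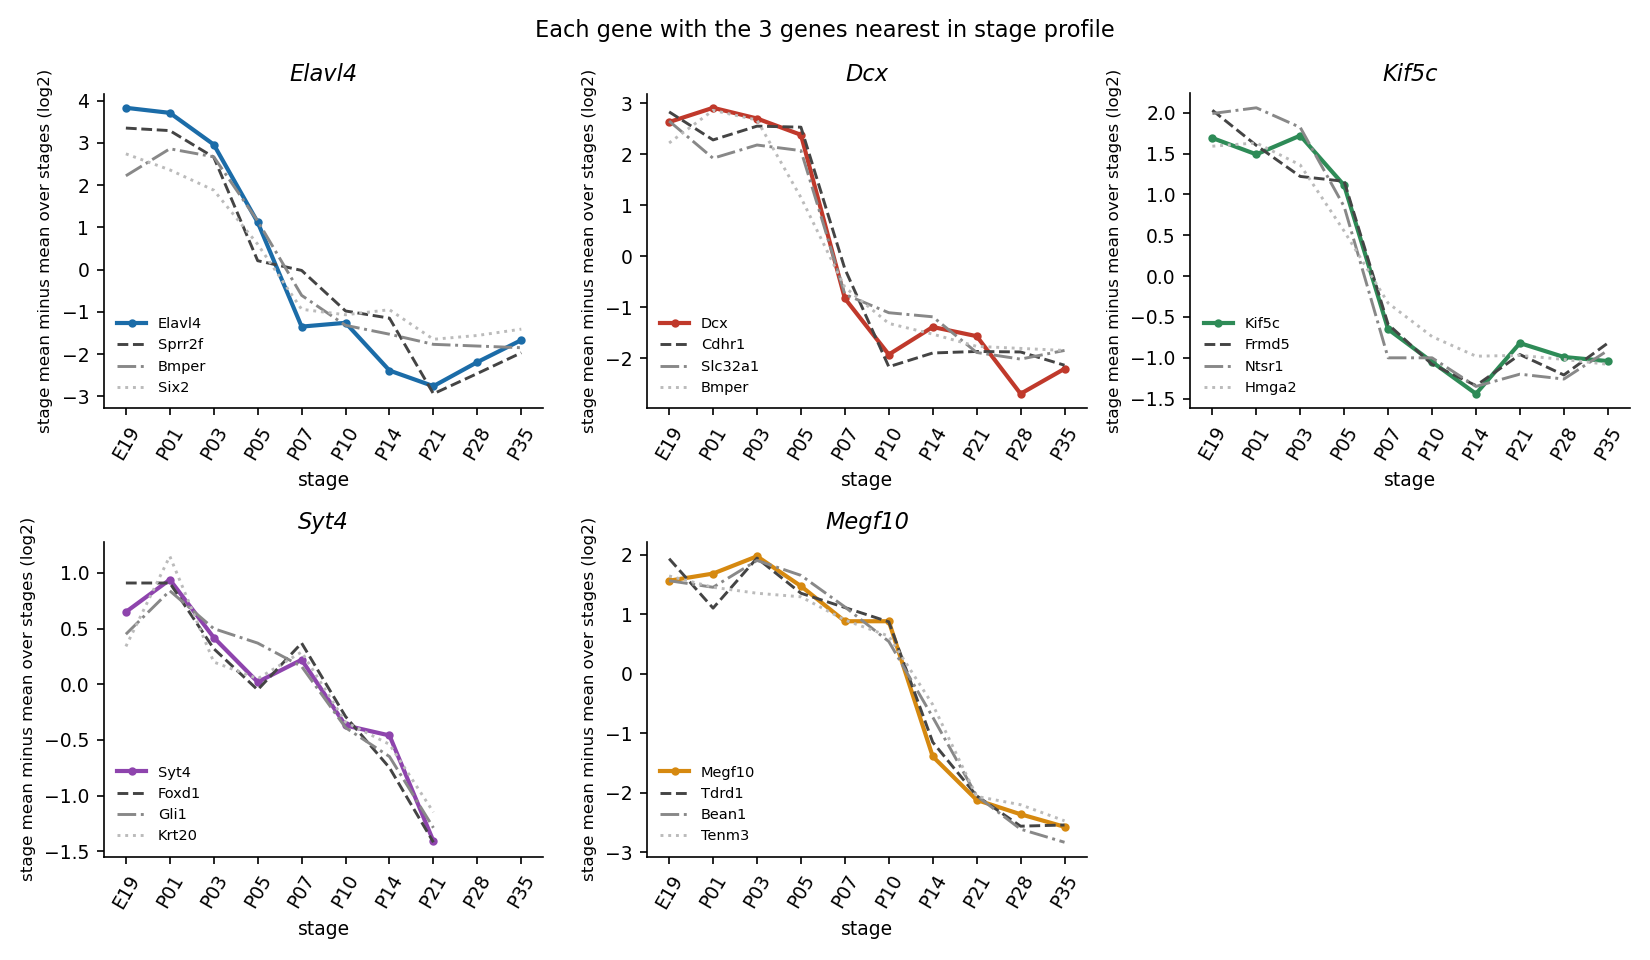
Stage means after subtracting each gene's mean over stages (vertical axes, log2, a scale of its own per panel) at the 10 stages (horizontal axes) for each of the 5 genes (coloured) and the 3 genes nearest in course (grey). Six2 runs beside Elavl4 with its drop between P03 and P07, the Megf10 neighbours drop after P10, and Syt4 is drawn over 8 stages.

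Megf10 serves engulfment and muscle precursors elsewhere, so both lists were read. Of 10 engulfment genes 5 fell and 1 rose in P35 minus E19, where 19.0% of all genes fell and 21.2% rose. Gulp1, an adaptor that acts downstream of Megf10-type receptors, fell by 1.42 ± 0.24, Axl fell by 1.39 ± 0.21 and Lrp1 fell by 1.35 ± 0.28, as did Elmo1 (-1.01) and Mfge8 (-0.75), both named after their values were seen. Mertk, a phagocytosis receptor of macrophages, rose by 1.04 ± 0.24. Of 11 muscle genes 3 fell, all of them contractile: embryonic myosin Myh3 (-3.43 ± 0.41) and the actins Acta1 (-2.27 ± 0.38) and Actc1 (-2.11 ± 0.41). Pax7, the factor of muscle satellite cells, rose by 1.10 ± 0.28 (limma adjusted p = 0.00278), and Myog, of differentiating muscle, differed by 0.13 ± 0.20 and passed after quantile normalization (0.56). The median of the 11 muscle genes ran from -2.41 to -1.53 on P35 arrays and from -0.67 to -0.35 on E19 arrays. On P01 arrays it already ran from -1.59 to -0.84, and on P10 arrays from -2.44 to -0.82. Its part in the Megf10 values was not tested.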

How the data were processed

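Kidney RNA of 32 samples was measured on two-colour arrays against a common reference. The authors deposited 1 ratio per probe and array. The scale of the deposited values was read here as log10 from their range (-3.25 to 4.00) and multiplied by 3.32 to give log2; were they log2, every difference would shrink by that factor. Per the labels, kidney RNA carried Cy5 and the reference Cy3. How background and dye bias were corrected is not given in the sources used here. Array medians were 0.

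Of 45220 probes, 202 had no value, 33653 carried 1 gene symbol, 56 several (left out) and 11511 were unnamed. Entrez identifiers matched 18966 of 19087 genes in RefSeq. Exact zeros (10.8% to 23.1% of an array) counted as not measured. For each gene the probes measured on all 32 arrays were averaged; a gene without such a probe took the one with the most measured arrays. This differs from averaging all its probes, given as an alternative. No pair of arrays was identical (smallest median absolute log2 difference 0.205). The members and gene lists were chosen with earlier results of these data known. So were the tubule genes and the fits per probe, and the motifs named include every motif searched.

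Stages were compared with limma 3.58.1 (R 4.3.3; data.table, version 1.17.8), with 1 mean per stage over all 32 arrays, only genes with 2 or more measured arrays at each stage compared, Benjamini-Hochberg adjustment over all genes and a threshold of 0.05. Scripts were tested on simulated data. Named genes are the members, all their relatives with a value, the 3 nearest in course per member, the 4 largest passing changes of each other list and preset markers. Alternatives were zeros kept, all probes averaged, quantile normalization, subtracted array medians, the image run as a block, only the compared stages, at least 3 arrays and each array left out. Figures used Python 3.11.15, pandas 2.3.3 and matplotlib 3.10.9.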

Additional observations from a re-analysis of the deposited data

How the results depend on the processing

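No paired analysis was possible because the labels give the arrays of different stages no shared replicate numbers. Values are log2, later minus earlier stage. With exact zeros kept as ratios of 0, every probe counts as measured, so all probes of a gene were averaged. This brought in sparsely measured probes, whose zeros pull the means towards 0. P35 minus E19 was then -4.01 for Elavl4, -1.96 for Dcx and -1.55 for Kif5c. P07 minus E19 was -3.72, -1.75 and -1.37 in that order, and P35 minus P07 was -0.21 for Dcx. With all probes averaged, P35 minus E19 was -4.43, -3.25 and -2.27 for the same genes, P07 minus E19 was -4.54 for Elavl4 and -1.87 for Dcx, and P35 minus P07 was -0.03 for Kif5c. On a second probe alone, an alternative chosen after seeing the data, P35 minus E19 was -3.01 for Elavl4 and -2.30 for Kif5c, and P07 minus E19 was -3.39 and -1.84. Within image runs, P07 minus E19 was -6.19 (run 1) and -4.53 (run 2) for Elavl4. It was -5.64 (run 1) and -2.61 (run 2) for Dcx. For Syt4 it was 0.33 (run 1) and -1.84 (run 2), of opposite sign. P35 minus E19 was -3.46 (run 3) for Dcx, -2.21 (run 2) for Kif5c and -4.55 (run 2) for Megf10, and P35 minus P07 in run 2 was -2.07 for Dcx, -0.01 for Kif5c and -4.16 for Megf10. The cause was not tested for the probes and the runs. Without 1 array at a time, P35 minus E19 ran from -5.84 to -5.08 for Elavl4, -5.50 to -4.00 for Dcx, -2.88 to -2.62 for Kif5c and -4.26 to -3.94 for Megf10. P07 minus E19 ran from -5.46 to -4.71, -4.12 to -2.62, -2.52 to -2.24 and -0.92 to -0.52 for those genes and from -0.94 to 0.26 for Syt4. P35 minus P07 ran from -0.79 to 0.10 for Elavl4, -1.86 to -0.90 for Dcx, -0.54 to -0.21 for Kif5c and -3.61 to -3.20 for Megf10. Over all genes, 6883 passed in P35 minus E19 (5917 to 6966 without 1 array), 4582 in P35 minus P07 (3543 to 4714) and 7126 by the F test (6740 to 7492). In P07 minus E19, 1236 passed (868 to 1315), 2285 with the image run as a block and 261 with only the 2 stages fitted, which has fewer arrays. Genes of the lists passed 95 times in P35 minus E19 (87 to 96), 78 times in P35 minus P07 (68 to 82) and 27 times in P07 minus E19 (22 to 30), and 10 times in P07 minus E19 with only the 2 stages. Syt16, past the test at 0.66, turned to -0.01 with zeros kept and -0.04 with all probes. Spot intensities were not used here, so low signal could not be told from absent signal.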

Other observations

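Several other groups of growth and patterning genes were lower at P35 than at E19. In that comparison 19.0% of all genes fell and 21.2% rose. All 11 cell division genes tested fell, with a median of -2.82, among them the kinetochore kinase Bub1 (-3.48 ± 0.50, SE) and Top2a, which untangles replicated DNA (-3.09 ± 0.32). The largest step down led into P21 for all 11, as for 32.6% of the 3197 genes that fell and were measured at every stage, and the list median ran from -4.24 to -3.0 on P35 arrays and from -0.78 to -0.55 on E19 arrays. Of 9 stromal progenitor genes 6 fell, including Aldh1a2, which makes retinoic acid (-3.11 ± 0.27), and Meis1 (-3.02 ± 0.24), while Ntn1 (netrin), named after its value was seen, rose by 2.16 ± 0.45. The largest step down led into P21 for 5 of those 6, against the same 32.6%.

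Of 7 ureteric bud tip genes 3 fell in P35 minus E19, against 19.0% of all genes. They were Etv4, a target of Ret signalling (-3.69 ± 0.53), Wnt11 (-2.71 ± 0.33) and Wnt9b (-1.87 ± 0.35). Of 9 podocyte genes 3 fell, Wt1 (-2.74 ± 0.23), Nes (-1.91 ± 0.36) and Cdkn1c (-1.43 ± 0.23), and Clic5, of the foot processes, rose by 1.64 ± 0.24. In P35 minus P07, Elavl3 rose by 2.44 ± 0.49, Dclk3 by 1.16 ± 0.41 (limma adjusted p = 0.0369) and Kif5b by 1.08 ± 0.28 (limma adjusted p = 0.00443). Over this span Elavl4 differed by -0.32, Dcx by -1.38 and Kif5c by -0.39. The Elavl4 value had no stable sign, and that of Kif5c was -0.03 with all probes averaged. The Dclk3 call was lost after quantile normalization (1.04), with only the 2 stages fitted (1.16) and without P07 replicate 1 (1.13), P07 replicate 2 (0.97), P35 replicate 1 (1.08), P35 replicate 2 (1.05) or P35 replicate 3 (1.04). The Kif5b call was lost without P07 replicate 2 (0.72).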
